A study of Mus musculus with 45 samples.

Results

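The genes described here are 34 genes of the endoplasmic reticulum (ER) that fold secreted proteins, send misfolded ones for degradation, or sense how loaded the folding machinery is. They were taken by symbol from a list that was drawn up with earlier results of these data known, and all 34 were found among the 35272 genes of the joined count tables. By role, 13 are chaperones and their partners, 8 are disulfide isomerases, 10 belong to ER-associated degradation (ERAD), and 3 are the stress sensors Atf6 and Ern1 with the transcription factor Xbp1. The messenger RNA came from forelimb buds of CD1 mouse embryos of gestation day 13, grown as organ cultures for 3, 24 or 48 h in medium with the solvent DMSO, with 1 µM bisphenol AF (BPAF), or with 5 µM BPAF. BPAF is a fluorinated relative of the plastics chemical bisphenol A. Each dose and time has 5 libraries, 45 in all, and all groups share the strain, the age and the culture medium. Limbs of male and female embryos were pooled in the culture bottles, so each library is a mixture of animals, of both sexes and of all cell types of the limb bud.

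Secreted and membrane proteins enter the ER unfolded, and chaperones such as BiP (Hspa5) hold them until disulfide isomerases have set their cysteine bridges. When unfolded protein builds up, BiP leaves the membrane sensors IRE1 (Ern1), ATF6 and PERK. IRE1 then splices the messenger RNA of Xbp1, ATF6 is cut free in the Golgi, and both become transcription factors that raise chaperone, isomerase and ERAD genes. A limb bud in culture is forming cartilage, and chondrocytes secrete collagen in quantity, which makes the same genes part of normal differentiation. Counts per gene do not separate spliced from unspliced Xbp1 messenger RNA.

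Read totals per library lay between 14901842 and 25154115, with a median of 17820524. Every one of the 14 chondrocyte markers looked at, Col2a1 and Acan among them, was detected in each group. For replicate 5 of 1 µM at 3 h the title gives 1 µM BPAF, but a treatment label gives another bisphenol at another dose. Replicates 1 and 2 of 1 µM at 48 h carry each other's number in their library codes, and the numbers used here are those of the titles. Values are CPM, read counts scaled to library size, with TMM scaling over all 45 libraries. Differences are log2 fold changes ± standard error (SE) of the first group named over the second from edgeR's quasi-likelihood test. A gene was called higher or lower at a Benjamini-Hochberg adjusted p under 0.05 over all genes tested. Counts at an unadjusted p under 0.05 are not calls, and they are given without the share of all genes at that threshold. Nothing in the labels says that libraries of a group came from separate bottles, litters or days, so these p-values measure the spread between libraries, part of which may be technical.

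Promoters of ER stress genes are known for the ER stress response element (ERSE), which ATF6 and XBP1 bind together with the CCAAT factor NF-Y. It was searched on both strands as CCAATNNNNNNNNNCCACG in the RefSeq promoter windows of build GRCm38.p6, which reach 250 bases before and 50 bases after each gene's start. Windows were found for 30 of the 34 members, all but Hyou1, Manf, Derl1 and Atf6. The motif was present in 9 of these 30 (30.0%), against 37 of all 27025 genes with a window (0.137%), the 9 included. As the element is known from promoters of such genes, this share is a description and not a test. With 5 µM BPAF at 48 h, 8 of the 9 carriers were called higher, which is why they are shown. Beside them, 10 of the 21 other members with a window were called, and 7.16% of all genes tested. At 3 h the calls were 3 of the 9 carriers and 4 of the 21 others. The stretches below show the motif in capitals with 10 bases on either side, each read in the direction of the motif.

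Hspa5, chr2:34772015-34772053, plus strand: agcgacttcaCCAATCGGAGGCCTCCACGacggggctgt
Dnajc3, chr14:118937817-118937855, plus strand: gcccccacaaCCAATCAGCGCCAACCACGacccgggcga
Canx, chr11:50325790-50325828, minus strand: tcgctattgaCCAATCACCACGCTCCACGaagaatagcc
Calr, chr8:84847065-84847103, plus strand: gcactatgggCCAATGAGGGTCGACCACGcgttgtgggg
Hsp90b1, chr10:86705628-86705666, minus strand: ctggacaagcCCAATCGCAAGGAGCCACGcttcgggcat
Hsp90b1, chr10:86705523-86705561, plus strand: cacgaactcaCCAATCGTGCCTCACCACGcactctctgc
Creld2, chr15:88819510-88819548, minus strand: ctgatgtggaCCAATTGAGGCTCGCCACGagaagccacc
Pdia6, chr12:17266481-17266519, plus strand: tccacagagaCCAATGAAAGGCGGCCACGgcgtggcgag
Derl3, chr10:75893232-75893270, minus strand: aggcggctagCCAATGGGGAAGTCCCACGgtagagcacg
Syvn1, chr19:6046522-6046560, plus strand: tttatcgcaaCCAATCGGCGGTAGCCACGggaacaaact

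Of the carriers, 6 are chaperones, 1 is an isomerase (Pdia6) and 2 are ERAD genes (Derl3 and Syvn1). Hsp90b1 was the member with a pair of copies in its window. The compact variant ERSE-II, searched as ATTGGNCCACG, was present in Herpud1 and Dnajb11 (12 of all genes with a window, 0.0444%). Its stretches are given here because Herpud1 was among the largest responses at 48 h.

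Herpud1, chr8:94386367-94386397, plus strand: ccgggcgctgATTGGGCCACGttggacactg
Dnajb11, chr16:22857842-22857872, plus strand: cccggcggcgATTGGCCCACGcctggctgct

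The core of the XBP1 element (UPRE), TGACGTGG, was present in Txndc11 and Txndc5 (0.714% of all genes with a window). The ATF4 element core, TGATGNAA, was present in Herpud1 and Txndc5 (4.51% of all genes with a window). A match is a stretch of letters and does not show that a factor binds there.

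With 5 µM BPAF, ER folding genes were already higher at 3 h of culture and most widely so at 48 h. In 5 µM against control libraries, 9 of 34 members were called at 3 h, 9 at 24 h and 20 at 48 h, and every call was higher. Of all genes tested, 0.18% were called at 3 h, 1.57% at 24 h and 7.16% at 48 h, in either direction. At 3 h the members made up 9 of the 19 genes called higher among all genes tested. The median log2 fold change over the 34 members was 0.17 at 3 h, 0.24 at 24 h and 0.29 at 48 h, against 0.00082, 0.0019 and -0.0019 over all genes tested at these times. The changes were small in size: the largest fold of a called member other than Derl3 was 1.45 (Dnajb9, 48 h). Canx, Dnajc3, Hspa5, Pdia4 and Txndc11 were the 5 members called at all 3 times. The share of reads from Y-linked genes, a measure of the sex mixture, varied between libraries, and with it as a covariate 4 members were called at 3 h (Xbp1, Hspa5, Dnajc3 and Canx) and 5 at 24 h (Calr, Canx, Dnajc3, Hsp90b1 and Hspa5). At 24 h the count also rested on single libraries: it was 3 without 5 µM replicate 1 or control replicates 1 or 3, 4 without 5 µM replicates 2 or 3 or control replicate 2, and 5 without 5 µM replicate 4. Over all genes the calls at 24 h also moved, from 109 to 498 with a library left out, beside 258. Hspa5, Calr and Pdia5 kept their 24 h calls without any single library, while Canx, Derl3, Dnajc3, Hsp90b1, Txndc11 and Pdia4 each lost theirs without 5 µM replicate 1 or control replicate 1, among other libraries, at an adjusted p of up to 0.138. Of these, Derl3 also lost its call with upper-quartile scaling (adjusted p = 0.0516) and Dnajc3 without a filter on low counts (0.0540).

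**Figure D1:**
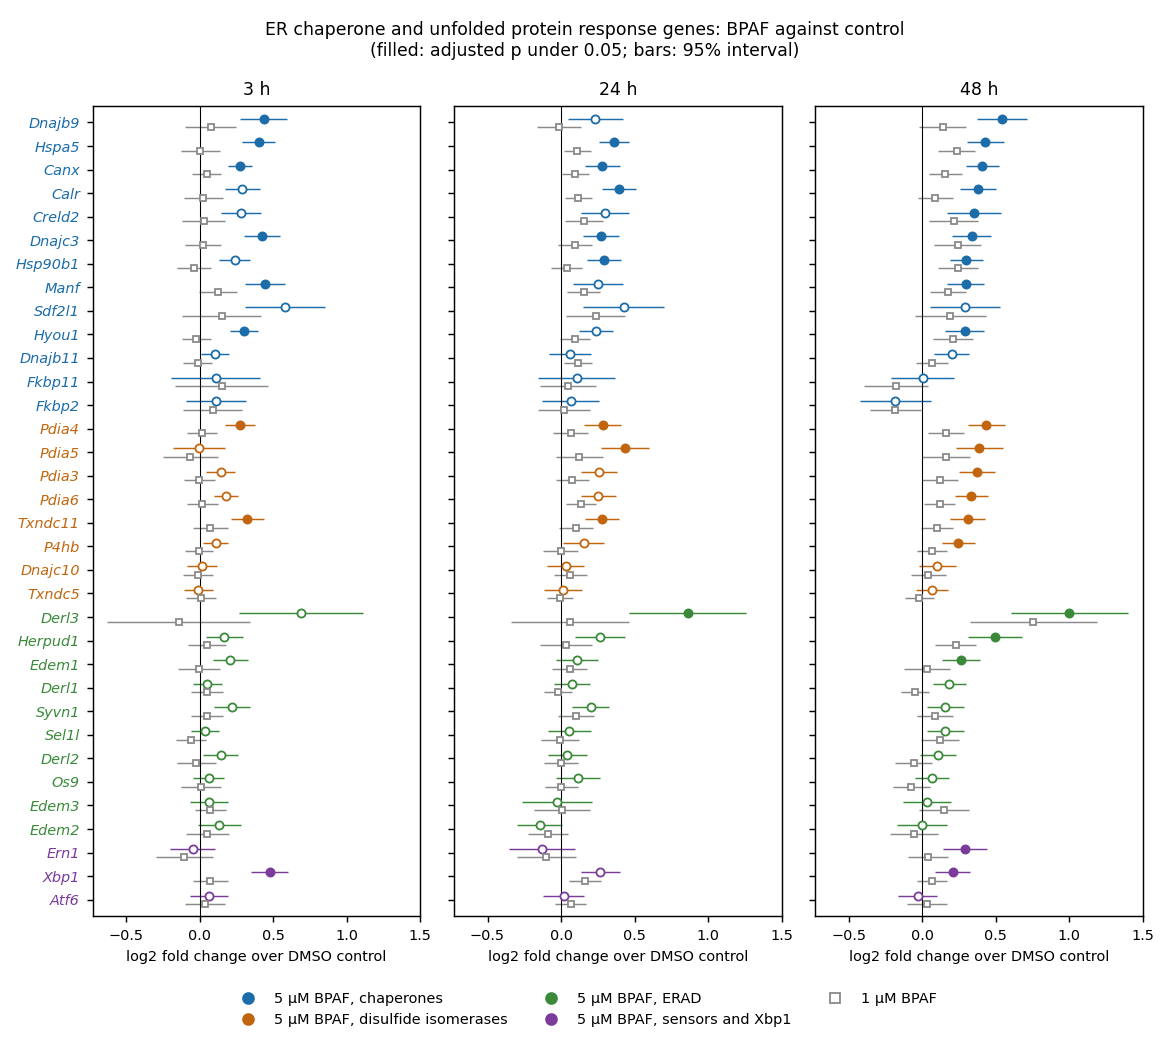
Log2 fold change over DMSO control of the 34 members (rows, coloured by role) at 3, 24 and 48 h, for 5 µM BPAF (round, coloured) and 1 µM BPAF (square, grey), with 95% intervals; filled symbols had an adjusted p under 0.05. At 5 µM the filled symbols number 9, 9 and 20, all to the right of 0, and at 1 µM there are none.

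Of the sensors and Xbp1, Xbp1 was called at 3 and 48 h, Ern1 at 48 h and Atf6 at no time. Xbp1 (ENSMUSG00000020484, chromosome 11, 5520659 to 5525893, build mm10), the transcription factor activated by IRE1, had the smallest p of all members at 3 h. Its libraries read 108, 123, 120.0, 114 and 134 CPM with 5 µM BPAF, against 89.97, 94.1, 75.1, 86.6 and 85.5 CPM in controls. The groups did not overlap, and Xbp1 was higher by 0.48 ± 0.064 (adjusted p = 0.00182). At 24 h the 5 µM libraries again all lay above the controls, at 148 to 180.0 (median 151) against 124 to 142 (median 128) CPM, but the difference of 0.27 ± 0.068 was not called (adjusted p = 0.0674). At 48 h Xbp1 was called at 0.21 ± 0.061 (adjusted p = 0.0494), with 164 to 193 (median 174) against 137 to 159.9 (median 151) CPM. That 48 h call was lost without any one of 7 of the 10 libraries (5 µM replicates 1, 3 and 5, control replicates 1, 3, 4 and 5), with an adjusted p of up to 0.124. Upper-quartile scaling (adjusted p = 0.0646), leaving low counts unfiltered (0.0684) and the covariate of Y-linked reads (0.0622) each ended it too.

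Ern1, which encodes the sensor kinase and nuclease IRE1, was called at 48 h alone. At 3 h its libraries held 27.1, 33.1, 32.6, 30.8 and 30.3 CPM with 5 µM BPAF and 30.6, 28.4, 37.3, 32.1 and 31.2 CPM in controls, which overlap (-0.049 ± 0.077, adjusted p = 0.904). The 24 h values overlapped as well, at 30.1 to 40.7 (median 39.7) against 30.8 to 49.4 (median 40.6) CPM. At 48 h the 5 µM libraries held 51.2, 48.8, 58.97, 48.5 and 51.5 CPM, each above all controls at 48.3, 38.3, 40.8, 40.7 and 40.9 CPM, and Ern1 was higher by 0.29 ± 0.075 (adjusted p = 0.0235). The call needed 5 µM replicate 3 and control replicates 2, 4 and 5, each of whose removal put the adjusted p between 0.051 and 0.0642. Atf6, the sensor that is itself cleaved into a transcription factor, differed by 0.062 ± 0.065, 0.017 ± 0.073 and -0.032 ± 0.069 at 3, 24 and 48 h, with adjusted p between 0.840 and 0.971. Its 48 h level was 65.1, 64.00, 73.8, 65.8 and 60.4 CPM with 5 µM BPAF and 66.97, 61.3, 75.8, 63.8 and 64.5 CPM in controls, and the 95% interval of the difference there was -0.17 to 0.10.

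Chaperones held most of the 3 h calls, with 6 of 13 called at 3 h, 5 at 24 h and 9 at 48 h. Hspa5 (ENSMUSG00000026864, chromosome 2, 34771970 to 34777547), which encodes BiP, the Hsp70 of the ER and the brake on the sensors, was called at each time. At 3 h its libraries held 754, 839, 828, 782 and 918 CPM with 5 µM BPAF, against 637, 675, 544, 630.2 and 639.7 CPM in controls. The lowest treated library stood above the highest control. The same held at 24 h, with 1066, 1028, 1032, 984 and 1032 against 735, 811, 790.5, 835 and 832 CPM, and at 48 h, with 1129, 991, 1288, 1098 and 1116 against 794, 883, 823, 823 and 803 CPM. Hspa5 was higher by 0.40 ± 0.058, 0.36 ± 0.052 and 0.43 ± 0.064 at 3, 24 and 48 h (adjusted p = 0.00319, 0.00233 and 0.000304), which is 1.32-fold, 1.28-fold and 1.35-fold.

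**Figure D2:**
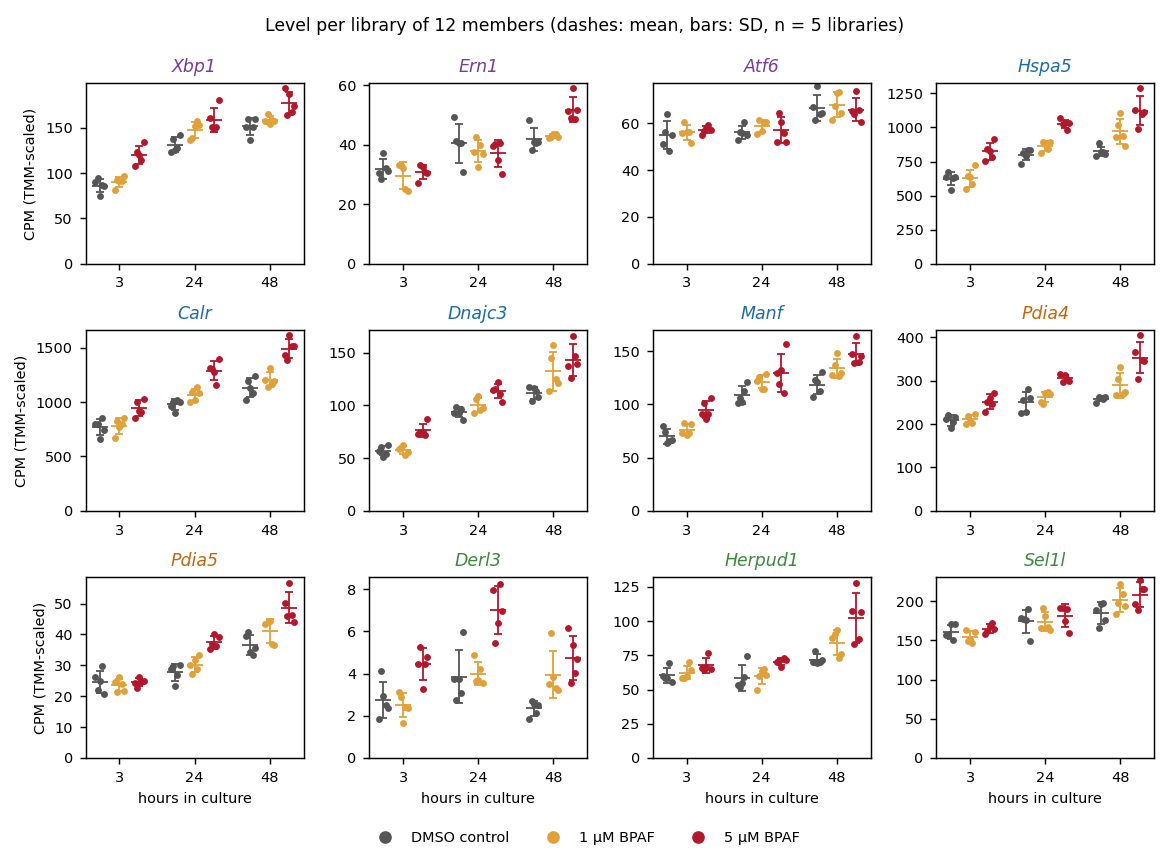
TMM-scaled CPM of 12 members in every library (points) against hours in culture, for DMSO control, 1 µM and 5 µM BPAF, with mean (dash) and SD (bar), n = 5. Titles are coloured by role. The 5 µM points of Hspa5 and Xbp1 lie above all control points at each time, while those of Atf6 and Sel1l overlap the controls.

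The partners that drive BiP's cycle moved with it to different degrees. Dnajc3, a J-domain protein also known as a brake on PERK, held 72.6, 74.5, 74.8, 72.4 and 87.2 CPM at 3 h with 5 µM BPAF, against 56.7, 60.4, 51.3, 54.2 and 62.3 CPM in controls. These did not overlap, and Dnajc3 was higher by 0.42 ± 0.063 at 3 h, 0.27 ± 0.063 at 24 h and 0.34 ± 0.067 at 48 h (adjusted p = 0.00394, 0.0416 and 0.00387). Hyou1, the large Hsp70-like exchange factor of BiP, held 183, 197, 192, 194 and 195 CPM with 5 µM BPAF and 167, 162, 144, 155 and 154 CPM in controls at 3 h. It was called at 3 h (0.30 ± 0.048, adjusted p = 0.00602) and 48 h (0.29 ± 0.068, adjusted p = 0.0135), and at 24 h its difference was 0.24 ± 0.058 (adjusted p = 0.0585).

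Dnajb9, a J-domain protein that returns BiP to IRE1, was called at 3 and 48 h. At 48 h its 5 µM libraries held 49.8, 45.9, 64.6, 50.8 and 52.6 CPM, against 31.5, 36.5, 38.3, 37.7 and 35.3 CPM in controls, a rise of 0.54 ± 0.087 (adjusted p = 0.000569) and the steepest among the chaperones at that time. Its 3 h rise of 0.43 ± 0.083 (adjusted p = 0.0337) lost its call without any one of 6 libraries: 5 µM replicates 2, 4 and 5 and control replicates 1, 2 and 3, with an adjusted p of up to 0.108. At 24 h Dnajb9 read 37.1 to 46.9 (median 37.99) against 30.1 to 40.97 (median 34.05) CPM and was not called. Dnajb11, the J-domain partner of BiP on newly made chains, stayed uncalled at all times, with differences of 0.10, 0.060 and 0.20 at 3, 24 and 48 h. At 48 h, however, each of its 5 µM libraries (121 to 145 CPM) lay above each control (103 to 119 CPM), at an adjusted p of 0.0595.

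The lectin chaperones of the calnexin cycle, which hold glycoproteins while they fold, were both called higher at 24 and 48 h. Canx, the membrane-bound one, held 457, 476, 456, 471 and 485 CPM with 5 µM BPAF at 3 h, against 380.4, 413, 384, 386 and 378 CPM in controls. It was higher by 0.27 ± 0.042, 0.28 ± 0.060 and 0.41 ± 0.057 at 3, 24 and 48 h, and at 48 h it had the smallest adjusted p of all members (0.000159). Its 48 h libraries held 654, 585, 699, 679 and 640.1 CPM with 5 µM BPAF and 498, 467, 501, 466 and 495 CPM in controls. Calr, the soluble one, was at 857 to 1033 (median 913) against 662 to 853 (median 798) CPM at 3 h, without overlap but not called (0.29 ± 0.062, adjusted p = 0.0657). It was called at 24 h (0.40 ± 0.058, adjusted p = 0.00256), where its libraries held 1309, 1301, 1279, 1159.7 and 1399 against 962, 1003, 903, 1021 and 1002 CPM, and at 48 h (0.38 ± 0.063, adjusted p = 0.000793).

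Hsp90b1, the Hsp90 of the ER, which matures integrins and Toll-like receptors among other clients, was at 558 to 637 (median 606) against 478 to 575 (median 493) CPM at 3 h, with 1 control inside the treated range. It was not called there (0.24 ± 0.054, adjusted p = 0.0803), rose at 24 h by 0.29 ± 0.059 (adjusted p = 0.0207) and at 48 h by 0.30 ± 0.058 (adjusted p = 0.00288). At 48 h its libraries held 685, 590.1, 711, 685 and 679 CPM with 5 µM BPAF, against 552, 561, 506, 538 and 532 CPM in controls. Manf, a small BiP cofactor that cells also secrete under ER stress, held 91.4, 102, 86.6, 91.04 and 106 CPM at 3 h with 5 µM BPAF and 80.1, 74.2, 63.5, 65.7 and 66.8 CPM in controls. It was called at 3 h (0.44 ± 0.069, adjusted p = 0.00522) and 48 h (0.29 ± 0.064, adjusted p = 0.00728). At 24 h Manf overlapped between groups, at 110.5 to 157 (median 129.8) against 102 to 122 (median 106) CPM (0.25 ± 0.087, adjusted p = 0.222).

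Creld2, an ER stress-induced factor with isomerase activity that chondrocytes need in mice, was called at 48 h only at 0.35 ± 0.094 (adjusted p = 0.0279), with 72.8, 63.2, 83.4, 56.1 and 63.4 CPM under 5 µM BPAF and 51.2, 61.6, 49.9, 49.2 and 50.5 CPM in controls. Control replicate 2, the highest control, lay inside the treated range. The call was lost without 5 µM replicates 1 or 3 or control replicates 1, 3, 4 or 5, with an adjusted p of up to 0.0726. Sdf2l1, a partner of Dnajb11 in keeping misfolded chains soluble, gave the largest chaperone point estimate at 3 h (0.58 ± 0.14) on a low level of 10.1 to 15.1 against 7.09 to 10.95 CPM, and it was called at no time (adjusted p = 0.112, 0.191 and 0.182). The prolyl isomerases Fkbp2 and Fkbp11, which turn proline bonds in the ER, differed by between -0.18 (Fkbp2, 48 h) and 0.11 (Fkbp2, 3 h), and the adjusted p of either was at least 0.468.

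Of the disulfide isomerases, 2 of 8 were called at 3 h, 3 at 24 h and 6 at 48 h. Pdia4 (ENSMUSG00000025823, chromosome 6, 47796141 to 47813430), an isomerase also known as ERp72, was called at each time. At 48 h its libraries held 366, 304, 406, 348 and 344 CPM with 5 µM BPAF, against 249.7, 261, 259.8, 258 and 262 CPM in controls. All treated libraries were above all controls, and the rise was 0.44 ± 0.064 (adjusted p = 0.000260), after 0.27 ± 0.053 at 3 h (adjusted p = 0.0376) and 0.28 ± 0.064 at 24 h (adjusted p = 0.0392). The 3 h call was lost without any one of 8 libraries, all but 5 µM replicate 1 and control replicate 2, with an adjusted p of up to 0.135. The 24 h call was lost without any one of 8, all but 5 µM replicate 5 and control replicate 4.

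Txndc11, a membrane-bound thioredoxin-domain protein of the ER, was the other isomerase called at each time. Its 3 h libraries held 64.6, 67.2, 67.7, 66.2 and 64.9 CPM with 5 µM BPAF and 53.00, 58.8, 54.5, 47.96 and 50.1 CPM in controls, without overlap. The rises were 0.32 ± 0.056, 0.28 ± 0.059 and 0.31 ± 0.061 at 3, 24 and 48 h (adjusted p = 0.0145, 0.0268 and 0.00316). The 3 h call was lost without 5 µM replicate 2 or control replicates 1 or 5, at an adjusted p of up to 0.0596. Pdia5, an isomerase known for activating ATF6 in human cells, was not called at 3 h (24.3, 22.8, 26.3, 24.5 and 25.1 against 26.1, 21.9, 24.97, 29.8 and 20.8 CPM, -0.0058 ± 0.089, adjusted p = 0.992). At 24 h its 5 µM libraries held 35.1, 36.8, 40.05, 36.3 and 39.3 CPM, all above the controls at 28.7, 29.7, 23.3, 26.9 and 30.00 CPM. It was called there (0.43 ± 0.082, adjusted p = 0.0149) and at 48 h (0.39 ± 0.082, adjusted p = 0.00606).

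Pdia3, Pdia6 and P4hb were called at 48 h alone. Pdia3 (ERp57), which works on glycoproteins held by calnexin and calreticulin, held 1157, 1011, 1209, 1090.0 and 1108 CPM with 5 µM BPAF and 787, 933, 851, 797 and 887 CPM in controls, a rise of 0.37 ± 0.063 (adjusted p = 0.000961). Pdia6, which also quiets IRE1, held 547, 481, 562, 504 and 539 CPM against 389, 424, 406, 409.8 and 435 CPM and rose by 0.33 ± 0.056 (adjusted p = 0.000876). At 24 h their differences were 0.26 ± 0.063 and 0.25 ± 0.061 (adjusted p = 0.0563 and 0.0515). P4hb, the founding protein disulfide isomerase and a subunit of collagen prolyl 4-hydroxylase, held 1356, 1213, 1434, 1307 and 1377 against 1029, 1169, 1092, 1145 and 1139.9 CPM at 48 h and rose by 0.25 ± 0.058 (adjusted p = 0.0139). Dnajc10, a reductase that opens bridges of proteins bound for degradation, and Txndc5, an isomerase of the ERp46 type, were called at no time. Their differences lay between -0.010 (Txndc5, 3 h) and 0.10 (Dnajc10, 48 h), and the 95% interval of Txndc5 at 48 h was -0.044 to 0.18.

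Of the ERAD genes, 0 of 10 were called at 3 h (5 with an unadjusted p under 0.05), 1 at 24 h and 3 at 48 h. Derl3, a derlin of the channel that moves misfolded proteins out of the ER, had the lowest level per kilobase among members and the largest fold changes. At 24 h its libraries held 7.98, 5.47, 6.41, 8.24 and 6.99 CPM with 5 µM BPAF, against 3.74, 2.73, 3.73, 3.06 and 5.97 CPM in controls. Control replicate 5, which had the most haemoglobin reads of its group, lay inside the treated range. At 48 h the groups separated, with 6.16, 3.56, 5.34, 4.03 and 4.69 against 1.84, 2.69, 2.54, 2.15 and 2.51 CPM. Derl3 was higher by 0.86 ± 0.20 at 24 h (adjusted p = 0.0479) and by 1.00 ± 0.20 at 48 h (adjusted p = 0.00430), which is 1.82-fold and 2.002-fold. Its 3 h difference of 0.69 ± 0.21 was not called (adjusted p = 0.314). The other derlins were called at no time, with differences of 0.18 (Derl1, adjusted p = 0.0647) and 0.11 (Derl2, adjusted p = 0.396) at 48 h.

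Herpud1, a membrane protein that assembles the ubiquitin ligase complex and is among the most inducible ER stress genes, was called at 48 h only. Its 48 h libraries held 108, 83.3, 128, 86.9 and 107 CPM with 5 µM BPAF, against 69.8, 78.5, 69.1, 70.4 and 71.8 CPM in controls. None overlapped, and the rise was 0.49 ± 0.093 (adjusted p = 0.00234). At 3 h the values were 64.00 to 77.02 (median 65.6) against 55.6 to 69.3 (median 58.8) CPM (0.17 ± 0.063, adjusted p = 0.454). At 24 h the difference was 0.27 ± 0.088 (adjusted p = 0.191), and without control replicate 5, at 74.3 CPM the highest control, it was called at an adjusted p of 0.0117. Edem1, a lectin that draws mannose-trimmed proteins out of the folding cycle, held 90.4, 79.5, 91.6, 86.4 and 86.01 CPM with 5 µM BPAF and 77.2, 61.7, 72.6, 71.2 and 74.3 CPM in controls at 48 h, a rise of 0.26 ± 0.064 (adjusted p = 0.0172). Its relatives Edem2 and Edem3 differed by -0.0022 and 0.033 at 48 h (adjusted p = 0.993 and 0.884). The ligase core itself, Syvn1 (HRD1) with its adaptor Sel1l and the lectin Os9, was called at no time. Sel1l differed by 0.034, 0.056 and 0.16 at 3, 24 and 48 h, Syvn1 by 0.22, 0.20 and 0.16, and Os9 by 0.061, 0.12 and 0.066.

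Summed over role, chaperone reads were 0.353% ± 0.0187 of a library with 5 µM BPAF and 0.283% ± 0.0170 in controls at 3 h (SD, n = 5 each). At 48 h they were 0.455% ± 0.0241 with 5 µM BPAF and 0.353% ± 0.0101 in controls. Isomerase reads were 0.397% ± 0.0182 with 5 µM BPAF and 0.327% ± 0.0109 in controls at 48 h. ERAD reads were 0.0968% ± 0.00413 with 5 µM BPAF and 0.0863% ± 0.00173 in controls at 48 h. For each role and time, every treated library stood above every control, and sums of other genes were not set beside these. For ERAD at 24 h the lowest treated library was at 0.08357% and the highest control at 0.08347%. A sum follows its genes with the most reads and does not show that each gene rose. Xbp1 gave the most reads of the sensor sum, while Ern1 and Atf6 overlapped between groups at 3 and 24 h.

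**Figure D3:**
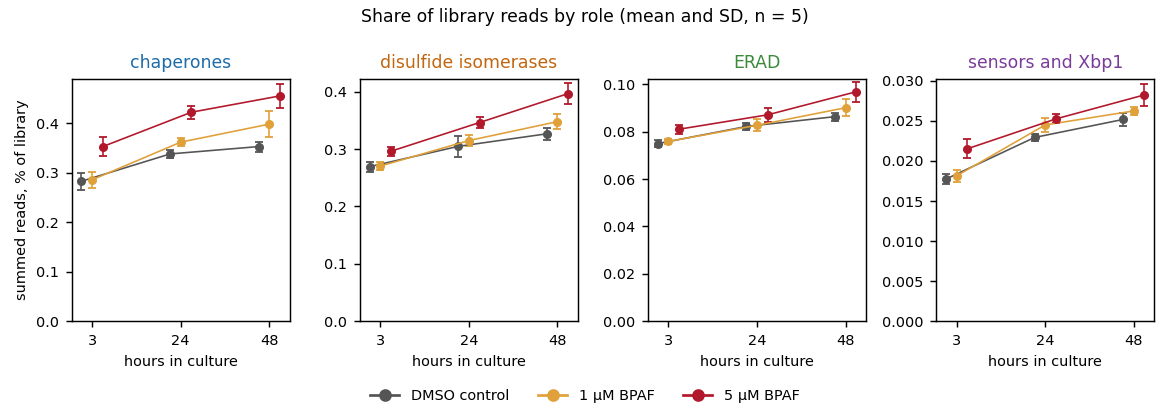
Reads of the members summed by role, as percent of all reads of a library, against hours in culture, for DMSO control, 1 µM and 5 µM BPAF (mean and SD, n = 5 libraries). Chaperone shares at 48 h were 0.353% ± 0.0101 in control, 0.398% ± 0.0258 at 1 µM and 0.455% ± 0.0241 at 5 µM.

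Whether the 5 µM effect itself differed between times was tested as an interaction over 20 libraries, and no member passed. The members called numbered 0 for 24 h minus 3 h, 0 for 48 h minus 24 h and 0 for 48 h minus 3 h in edgeR, and 2, 2 and 8 had an unadjusted p under 0.05. DESeq2 called 1, 0 and 1 and limma-voom 0, 0 and 0. Of all genes tested, 0.336%, 0.0693% and 2.8% were called. The nearest member was Pdia5, whose effect at 48 h exceeded that at 3 h by 0.41 ± 0.12 (95% interval 0.17 to 0.65, adjusted p = 0.0784), and which was the one DESeq2 called (adjusted p = 0.0388 for 48 h minus 3 h and 0.0485 for 24 h minus 3 h). Ern1 gave 0.35 ± 0.11 (adjusted p = 0.0910) and Herpud1 0.34 ± 0.12 (adjusted p = 0.180) for the same difference. Among members whose effect was smaller at 48 h, Xbp1 had the smallest p, at -0.26 ± 0.091 (95% interval -0.44 to -0.079, adjusted p = 0.166). A gene called at 48 h and not at 3 h was therefore not shown to respond more strongly at 48 h.

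At 1 µM BPAF no member was called against control at any time. Of all genes tested, 0% were called at 3 h, 0.00608% at 24 h and 0% at 48 h, and DESeq2 and limma-voom also called 0 members. The number of members with an unadjusted p under 0.05 was 0 at 3 h, 8 at 24 h and 11 at 48 h, each of them above control. These counts were not set against those of all genes and do not show a response. The median over members was 0.019 at 3 h, 0.064 at 24 h and 0.11 at 48 h. At 48 h Hspa5 held 927, 1016, 1109, 941 and 862 CPM with 1 µM BPAF, against 794, 883, 823, 823 and 803 CPM in controls. One treated library lay below the highest control, and the difference was 0.23 ± 0.065 (95% interval 0.11 to 0.36, adjusted p = 0.998). Hsp90b1 stood at 603, 708, 721, 587 and 569 CPM with 1 µM BPAF, above every control (506 to 561 CPM), with a difference of 0.24 ± 0.069 and the same adjusted p. Derl3 held 3.50, 5.93, 3.82, 3.31 and 3.23 CPM with 1 µM BPAF and 1.84, 2.69, 2.54, 2.15 and 2.51 CPM in controls, again without overlap (0.76 ± 0.22). At 3 h the interval for Hspa5 was -0.13 to 0.14 and for Xbp1 -0.048 to 0.19.

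Set directly against 1 µM libraries, the 5 µM libraries were higher for 4 members at 3 h, 4 at 24 h and 10 at 48 h. No member was lower. Of all genes tested, 0.036% were called at 3 h, 1.19% at 24 h and 5.96% at 48 h. These comparisons share the 5 µM libraries with those against control. At 3 h the members called were Hyou1, Xbp1, Dnajc3 and Hspa5, which were 4 of the 6 genes called in all. Hyou1 held 183, 197, 192, 194 and 195 CPM at 5 µM and 146, 155, 156, 159.8 and 151 CPM at 1 µM, a difference of 0.32 ± 0.044 (adjusted p = 0.0105). Xbp1 held 108, 123, 120.0, 114 and 134 CPM at 5 µM and 81.8, 91.95, 90.9, 91.2 and 96.3 CPM at 1 µM (0.40 ± 0.059, adjusted p = 0.0118). Neither gene overlapped between the doses. Without 1 µM replicate 4 the count at 3 h fell to 1 (Hyou1). Hyou1 kept its call without any single library, and Xbp1 and Dnajc3 lost theirs without 1 µM replicate 4 alone. Hspa5 (0.40 ± 0.066, adjusted p = 0.0344) lost its call without any one of 8 libraries, all but 5 µM replicate 1 and 1 µM replicate 5, at an adjusted p of up to 0.149, and with the Y-linked covariate (adjusted p = 0.0691). The library with the doubtful label, 1 µM replicate 5, was thus not needed for any of the 4 calls.

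At 24 h the 4 members above 1 µM were Hspa5 (0.24 ± 0.046), Calr (0.27 ± 0.054), Derl3 (0.80 ± 0.16) and Hsp90b1 (0.25 ± 0.054), with adjusted p between 0.0142 and 0.0322. Derl3 held 7.98, 5.47, 6.41, 8.24 and 6.99 CPM at 5 µM and 4.89, 3.65, 3.68, 4.24 and 3.56 CPM at 1 µM, without overlap. The count at 24 h was 0 without 5 µM replicate 1, 1 without 1 µM replicate 5, 2 without 5 µM replicates 2 or 4 or 1 µM replicates 1, 2, 3 or 4, and 7 without 5 µM replicate 5. Over all genes the calls there ranged from 95 to 553 with a library left out, beside 196. Hspa5 lost its call in 2 of the 10 removals, Calr and Derl3 in 5 each and Hsp90b1 in 8. At 48 h the 10 were Calr, Canx and Dnajb9 among chaperones, Pdia3, Pdia4, Pdia6, P4hb and Txndc11 among isomerases, Derl1 in ERAD and Ern1 among sensors. With the Y-linked covariate 5 were called, and Derl1, P4hb, Pdia4, Pdia6 and Txndc11 were not (adjusted p between 0.0636 and 0.0831). The count was 5 without 5 µM replicate 3 or 1 µM replicate 4, and 6 without 5 µM replicates 1 or 5 or 1 µM replicate 5. P4hb lost its call in 8 of the 10 removals, Pdia4 and Pdia6 in 7 each, Txndc11 in 4 and Pdia3 in 1, while Calr, Canx, Dnajb9 and Ern1 lost theirs in none. Calr had the smallest adjusted p, with 1432, 1386, 1613, 1514 and 1516 CPM at 5 µM and 1203, 1142, 1318, 1169 and 1193 CPM at 1 µM (0.30 ± 0.054, adjusted p = 0.00237). Derl1, not called against control at 0.18, stood at 141, 128, 161, 141 and 150.2 CPM at 5 µM and 117, 115, 129, 123 and 123 CPM at 1 µM (0.24 ± 0.059, adjusted p = 0.0222), a call lost without 5 µM replicates 3 or 5 or 1 µM replicate 2, at an adjusted p of up to 0.0655. Hspa5, called at 3 and 24 h in this pairing, differed at 48 h by 0.20 ± 0.072 with a 95% interval of 0.058 to 0.34 (adjusted p = 0.135).

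In control cultures, without any BPAF, most members rose with time. At 24 h against 3 h, 21 of 34 members were higher and 0 lower, at 48 h against 24 h 10 were higher and 1 lower, and at 48 h against 3 h 29 were higher and 0 lower. After adding the covariate of Y-linked reads, the members called were 13 in place of 21 for 24 h against 3 h, and 4 in place of 11 for 48 h against 24 h. The 11 also became 5 without 24 h replicates 1 or 3 or 48 h replicate 5, and 7 without 24 h replicate 2. Time moved much of the transcriptome: 37.8%, 16.3% and 50.9% of all genes tested were called in these comparisons. Over the 34 members the median difference was 0.25, 0.10 and 0.37, against -0.0086, -0.012 and -0.012 over all genes. Dnajc3 held 117, 104, 117, 114 and 108 CPM at 48 h and 56.7, 60.4, 51.3, 54.2 and 62.3 CPM at 3 h in controls, a difference of 0.98 ± 0.063 (adjusted p = 5.50e-10) and the smallest p among members. Xbp1 held 151, 159, 137, 151 and 159.9 CPM at 48 h and 89.97, 94.1, 75.1, 86.6 and 85.5 CPM at 3 h (0.82 ± 0.065, adjusted p = 8.04e-09).

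Several members differed in rank between time and BPAF. Fkbp11 had the largest time difference of any member, 1.33 ± 0.14 at 48 h against 3 h (adjusted p = 2.05e-07), with 14.97, 21.2, 16.7, 19.2 and 18.7 CPM at 48 h and 7.56, 6.88, 8.46, 8.004 and 5.15 CPM at 3 h, and differed by 0.0031 with 5 µM BPAF at 48 h. Txndc5 rose by 0.63 ± 0.058 over the same span (adjusted p = 6.05e-08), to 447, 454, 466, 426 and 493 CPM at 48 h against 298, 279, 294, 331 and 283 CPM at 3 h, and differed by 0.067 with 5 µM BPAF at 48 h. For Hsp90b1 and Hyou1 the time differences were 0.090 ± 0.058 and 0.087 ± 0.058 (adjusted p = 0.204 and 0.231), while both were called with 5 µM BPAF at 48 h. Derl3 was the one member called lower at 48 h than at 24 h, with a log2 difference of -0.72 ± 0.23 (adjusted p = 0.0400) and 1.84, 2.69, 2.54, 2.15 and 2.51 CPM at 48 h and 3.74, 2.73, 3.73, 3.06 and 5.97 CPM at 24 h. That call was lost without any one of 7 libraries (24 h replicates 1, 3 and 5, 48 h replicates 1, 3, 4 and 5, adjusted p up to 0.114). It was also lost with limma-voom (adjusted p = 0.0550), the replicate block (0.0573), no filter on low counts (0.0629) and the covariate of Y-linked reads (0.1001). Atf6, called at no time with BPAF, was higher at 48 h than at 3 h by 0.28 ± 0.079 (adjusted p = 0.00639). Edem2 and Dnajc10 were called neither at 48 h against 3 h in controls nor with 5 µM BPAF.

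**Figure D4:**
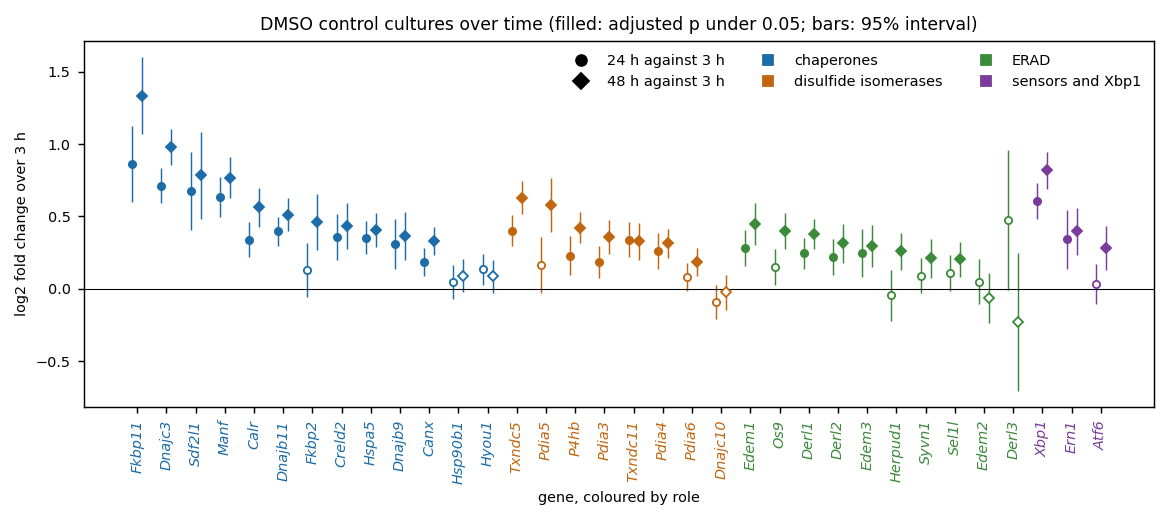
Log2 fold change over 3 h of the 34 members in DMSO control cultures at 24 h (round) and 48 h (diamond), coloured by role, with 95% intervals; filled symbols had an adjusted p under 0.05. Fkbp11 and Dnajc3 rose most, Hsp90b1 and Hyou1 have open symbols at both times, and 29 members are filled at 48 h.

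Per kilobase of gene model, levels spanned a wide range among members. In control cultures at 48 h the highest were Calr at 394 CPM per kilobase, P4hb at 389.7, Pdia3 at 271 and Hspa5 at 195. The lowest were Derl3 at 1.18, Ern1 at 5.11 and Derl2 at 6.31 CPM per kilobase. With 5 µM BPAF at 48 h the same scale gave 518 for Calr, 468 for P4hb, 355 for Pdia3 and 266 for Hspa5. The SD of log2 CPM within groups had a median of 0.10 over members, and ranged between 0.065 for Txndc5 and 0.32 for Derl3.

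Around the members, other steps of the secretory pathway had most of their calls at 48 h, as did all genes tested. The share called over all genes was 0.18%, 1.57% and 7.16% at 3, 24 and 48 h, in either direction. Such counts do not show that a response was stronger at 48 h. Of 30 genes of the translocon and of N-glycosylation, which bring chains into the ER and add sugars, 0 were called higher with 5 µM BPAF at 3 h, 1 at 24 h and 12 at 48 h. None was lower. Rpn1, a subunit of the sugar-transferring complex, was higher by 0.33 ± 0.066 (adjusted p = 0.0191) at 24 h and 0.42 ± 0.060 (adjusted p = 0.000219) at 48 h, and Sec61a1, the pore of the translocon, by 0.32 ± 0.054 (adjusted p = 0.00105) at 48 h. Of 24 genes of COPII export, which carry folded cargo to the Golgi, 0, 1 and 6 were higher at 3, 24 and 48 h. At 3 h 8 translocon and 4 COPII genes had an unadjusted p under 0.05. The receptor Kdelr2, which returns escaped ER chaperones, was called at both later times (0.24 ± 0.055 and 0.30 ± 0.055). Of 15 measured genes of the PERK, ATF4 and CHOP arm, 0, 2 and 9 were higher, led at 48 h by the pseudokinase Trib3 at 1.43 ± 0.16 (adjusted p = 1.33e-05) and the stress sensor Sesn2 at 0.67 ± 0.10 (adjusted p = 0.000213).

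Of 12 genes of the ATF6 family and its activating proteases (11 tested at 3 h) 0 were called at 3, 24 and 48 h, as were 0 of 20 measured genes of other folding enzymes and the calnexin cycle. For the ATF6 family 0, 1 and 2 genes had an unadjusted p under 0.05, and for other folding 3, 4 and 4. Of 20 further ERAD genes 0 were called at 3 and 24 h and 1 at 48 h, the ubiquitin-conjugating enzyme Ube2g2, which was lower, at -0.23 ± 0.066 (adjusted p = 0.0399). Of 17 collagen folding genes, 1 was lower at 3 h, the lysyl hydroxylase Plod2 at -0.23 ± 0.046 (adjusted p = 0.0376), 2 were higher at 24 h (Fkbp14 and the collagen chaperone Serpinh1), and 3 were higher and 1 lower at 48 h. Serpinh1 was higher by 0.28 ± 0.071 (adjusted p = 0.0194) at 48 h. The median over each list at 48 h was 0.19 for translocon and glycosylation, 0.13 for COPII export, 0.30 for the PERK, ATF4 and CHOP arm, 0.082 for the ATF6 family, 0.066 for other folding, 0.082 for other ERAD and 0.074 for collagen folding, beside -0.0019 over all genes.

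**Figure D5:**
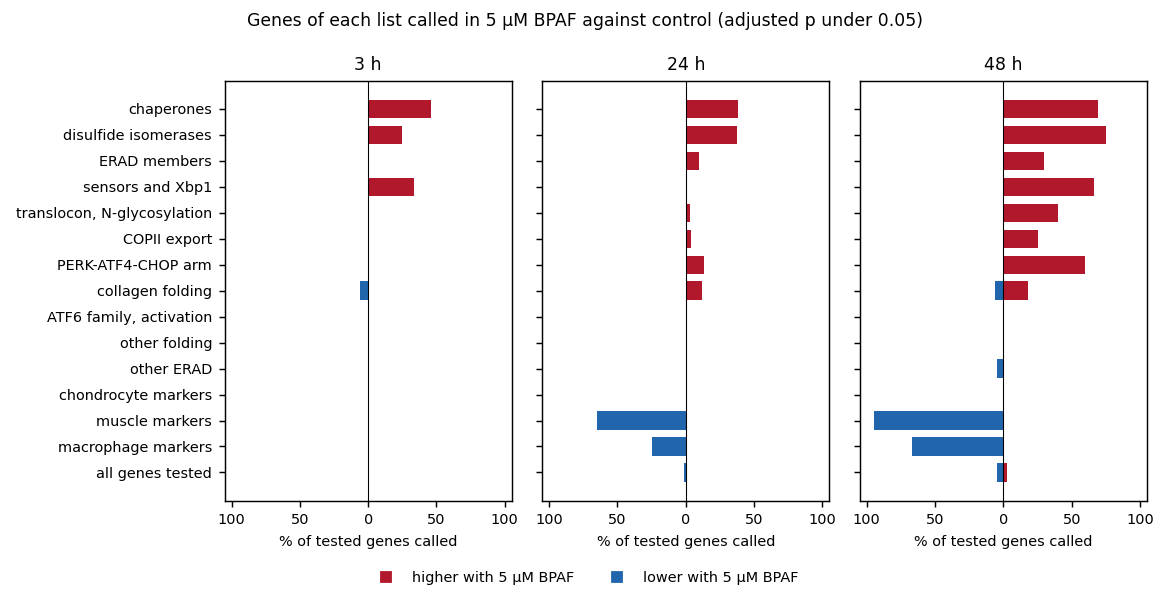
Percent of tested genes of each list called higher (right, red) or lower (left, blue) in 5 µM BPAF against control at 3, 24 and 48 h, with all genes tested in the bottom row. At 3 h chaperones (6 of 13), isomerases (2 of 8) and Xbp1 are called higher and Plod2 among collagen folding genes lower, at 48 h the translocon (12 of 30), COPII (6 of 24) and PERK arm (9 of 15) lists join, and muscle markers are lower at 24 h (11 of 17) and 48 h (17 of 18).

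Calls among cell type markers at the later times were mostly of skeletal muscle and macrophage markers. Over all genes tested, 0.18%, 1.57% and 7.16% were called at 3, 24 and 48 h, in either direction. In bulk libraries fewer cells of a type and less RNA per cell cannot be told apart. Skeletal muscle markers were lower with 5 µM BPAF for 0 of 18 at 3 h, 11 of 17 tested at 24 h and 17 of 18 at 48 h. Their summed level was 1957 to 2183 CPM with 5 µM BPAF and 1691 to 2216 CPM in controls at 3 h, where ranges overlapped. At 24 h it was 3128 to 4072 against 4760.3 to 5505 CPM, and at 48 h 3120.3 to 3767 against 5647 to 8839 CPM. Macrophage markers were lower for 0, 3 and 8 of 12 at 3, 24 and 48 h, with sums at 48 h of 176 to 210.0 CPM with 5 µM BPAF and 272 to 359 CPM in controls. Chondrocyte markers were called at none of the times (0 of 14 each, with 2, 4 and 4 at an unadjusted p under 0.05), and their sum at 48 h was 22809 to 27615 CPM with 5 µM BPAF and 19452 to 24139 CPM in controls. Hypertrophic and bone markers gave 0 calls at 3 h, 1 higher and 2 lower at 24 h, and 1 higher and 3 lower at 48 h. Erythroid markers gave 1 lower at 48 h, which is not read as a result about these cells, and plasma cell markers none. No marker of these lists was at 0 in all libraries of a group. Whether shifts in cell types had a part in the members' results was not tested at 3, 24 or 48 h.

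The motif shown above was set beside the responses as a description. The 9 carriers of ERSE had median log2 differences of 0.28, 0.29 and 0.35 with 5 µM BPAF at 3, 24 and 48 h, and 3, 6 and 8 of them were called. The 21 members with a promoter window but no ERSE had medians of 0.11, 0.11 and 0.21, and 4, 3 and 10 of them were called. Some of these hold an ERSE-II or a UPRE core, as given above. Syvn1 was the carrier not called at 48 h (0.16 ± 0.064, adjusted p = 0.178). Among members with a window but no ERSE, Xbp1, Dnajb9, Txndc11 and Pdia4 were called at 3 h. Hyou1 and Manf, also called at 3 h, had no window and are in neither set. In control cultures at 48 h against 3 h the median was 0.33 over carriers and 0.40 over the others.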

How the data were processed

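Messenger RNA of 45 limb bud cultures was sequenced, and the authors deposited 9 tables of 10 libraries each, without a table of all libraries. Per the file headers they hold raw read counts, a normalized signal (counts divided by a size factor), FPKM, and the authors' log2 fold change with its p-value. CASAVA 1.8, STAR 2.5, HTSeq 0.6.1, DESeq2 and the build mm10 are named per the submitters' processing notes, without settings. The deposited counts of libraries that occur in several tables were identical (0 differences), so they were joined to 35272 genes, and the 11.7% of gene and library combinations absent from a table were read as 0. The deposited FPKM and normalized signal followed from the counts and were not tested.

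Libraries were grouped by their labels. edgeR 4.0.16 (R 4.3.3) tested each pair of groups on its 10 libraries, and time differences on 20, with TMM scaling, filterByExpr (minimum count 10, minimum total 15), the quasi-likelihood F-test and Benjamini-Hochberg adjustment over all genes. The fit was tested on simulated data. Alternatives were DESeq2 1.42.0, limma-voom (limma 3.58.1), upper-quartile scaling, no filter, the replicate number as a block, the Y-linked read share as a covariate, each library left out, and all 45 libraries in 1 fit. Every member could be named; of other genes, at most 3 called genes with the smallest p of a list. The members and lists were chosen with earlier results of these data known. Protein sequences were not analysed here. Replicate numbers met the pairing criterion (every same-numbered correlation over 0.1) only for 1 µM against control at 24 h, from the data and not the labels, at 0.114 to 0.430, where 0 members were called with or without the block.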

Additional observations from a re-analysis of the deposited data

Results flagged for a closer look

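Single libraries that stood apart from the other 4 of their group were looked for in 21 of the members. Over the 9 groups this made 189 combinations of member and group, and 12 values were found. Chance alone gives about 5% of combinations, so the number found is near that of chance, and the values are listed as a description. At 3 h, Dnajb9 read 45.03 CPM and Dnajc3 87.2 CPM in 5 µM replicate 5, above the other libraries of the group (34.9 to 37.7 and 72.4 to 74.8 CPM), and Herpud1 read 77.0 CPM in 5 µM replicate 4 (others 64.00 to 66.3). Canx at 3 h read 440.2 CPM in 1 µM replicate 2 (others 386 to 397) and 413 CPM in control replicate 2 (others 378 to 386). At 24 h Pdia3 was low in 1 µM replicate 1, at 717 CPM (others 811 to 842). At 48 h Ern1 read 59.0 CPM in 5 µM replicate 3 (others 48.5 to 51.5) and 48.3 CPM in control replicate 1 (others 38.3 to 40.9), and Hsp90b1 was low in 5 µM replicate 2, at 590.1 CPM (others 679 to 711). Derl3 read 5.93 CPM in 1 µM replicate 2 at 48 h (others 3.23 to 3.82). In control replicate 2 at 48 h, Creld2 read 61.6 CPM (others 49.2 to 51.2) and Herpud1 78.5 CPM (others 69.1 to 71.8).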

How the results depend on the processing

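The count of members called with 5 µM BPAF against control was 9 at 3 h, and it was 14 with DESeq2, 4 with the Y-linked covariate and 6 to 10 with a library left out. At 24 h, beside 9, it was 14 with DESeq2, 18 with the replicate block, 5 with the Y-linked covariate, 15 without both libraries highest in haemoglobin, 16 with all 45 libraries in 1 fit and 3 to 12 with a library left out. At 48 h it was 17 to 22 with a library left out. Over all genes the calls ranged from 15 to 45, 109 to 498 and 912 to 1153 at 3, 24 and 48 h with a library left out, beside 30, 258 and 1171. For the other alternatives the counts over all genes are not given here. For 5 µM against 1 µM at 3 h, beside 4, it was 11 with DESeq2, 9 without a filter, 11 with the replicate block and 1 to 5 with a library left out (1 without 1 µM replicate 4). At 24 h, beside 4, it was 8 with DESeq2 and 0 to 7 with a library left out (0 without 5 µM replicate 1, 1 without 1 µM replicate 5). At 48 h, beside 10, it was 5 with the Y-linked covariate and 5 to 11 with a library left out (5 without 5 µM replicate 3 or 1 µM replicate 4). Over all genes the calls against 1 µM ranged from 1 to 9, 95 to 553 and 718 to 948 at 3, 24 and 48 h with a library left out, beside 6, 196 and 974. In controls the Y-linked covariate gave 13 beside 21 for 24 h against 3 h and 4 beside 11 for 48 h against 24 h, where a library left out gave 5 to 11. Time differences of the 5 µM effect gave 1 call with DESeq2 for 24 h minus 3 h and for 48 h minus 3 h, and 0 to 1 with a library left out for the last. The cause of these shifts was not tested. Atf6 in controls at 24 h against 3 h differed by 0.0298, against -0.0233 without control 3 h replicate 4 and -0.0001 without control 24 h replicate 4, and the range with a library left out was -0.0233 to 0.0919. Over all 510 member values, 107 changed sign under some alternative, with a log2 size of at most 0.18, and none of the 117 called values did. For single members, only a part of the values was labelled by what an alternative did to them, so these counts are not rates over all values. With a library left out, 1354 of the labelled values kept their side of the threshold, 183 lost a call, 21 gained one and 2 changed sign. Same-numbered libraries (with 1 µM at 48 h numbered by title) missed the pairing criterion in the comparisons other than 1 µM against control at 24 h. Missing it does not show that they were unpaired. The correlations ran from 0.024 to 0.485 for 5 µM against control at 3 h, and from 0.098 to 0.429 for 5 µM against 1 µM at 3 h. Among the labelled values of single members, the block added 26 and ended 2 calls.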

Other observations

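In control cultures the wider secretory pathway rose with time alongside the members. At 48 h against 3 h, 16 of 17 collagen folding genes, 18 of 30 translocon and glycosylation genes and 17 of 24 COPII genes were higher, with 0, 0 and 1 lower, beside 50.9% of all genes called in either direction. Creb3l1, a transcription factor of the ATF6 family that drives collagen secretion in bone, was higher by 1.61 ± 0.091 (adjusted p = 1.02e-10), and Sec24d, a COPII coat protein, by 0.95 ± 0.059 (adjusted p = 3.72e-10). The PERK, ATF4 and CHOP list split, with 5 higher and 5 lower of 15. Chondrocyte markers were higher for 13 of 14 and erythroid markers lower for 10 of 11 over the same span, and their part in these differences was not tested.

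In the authors' deposited results, members with an adjusted p under 0.05 numbered 14, 14 and 22 for 5 µM against control at 3, 24 and 48 h. Of all genes listed there, 113 of 30562, 513 of 29910 and 1521 of 29822 were under 0.05, in either direction. For 1 µM against control the members numbered 0 at each time, and all genes 0, 2 and 4.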
